A study of Mus musculus with 2 samples.

Results

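Solute carriers are membrane proteins that move amino acids, sugars, ions, metals, nucleotides, vitamins and organic acids across the plasma membrane and across the membranes of mitochondria, lysosomes, the endoplasmic reticulum and the Golgi apparatus. They are grouped into numbered families by sequence, so that the number after Slc names the family and the number after the letter names the member. Macrophages depend on them to export lactate, to take up amino acids and to empty the lysosome of the products of digested cells.

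The genes described here have a mouse symbol that starts with Slc and a digit, and at least 1000 reads summed over both libraries of the study. Of 379 genes with such a symbol among 49585 counted gene identifiers, 150 were members, 86 had reads but fewer than 1000, 136 had none, and 7 that passed the limit were left out by the rule (Slc10a6, Slc40a1, Slc11a1, Slc11a2, Slc7a11, Slc7a2 and Slc2a1). The values that chose the members are therefore the summed reads, which had a median of 4968 and a maximum of 72498. The members closest to the limit from above were Slc19a1, Slc37a1 and Slc39a4 with 1009, 1058 and 1060 reads, and the genes closest from below were Slc39a7, Slc5a6 and Slc9a7 with 986, 923 and 866. A low member can pass through the library in which it is high: 9 members had under 500 reads in their lower library. The members were placed in 12 groups by the substrate of their family, with 3 of them kept apart because they encode no transporter.

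Messenger RNA was read from CD11b+ cells, that is cells with the integrin of macrophages, monocytes, granulocytes and some dendritic cells, pulled with magnetic beads from subcutaneous tumours of mouse pancreatic cancer cell lines. The knockout group (labelled Test NRP2 KO) came from NRP2f/fCSF1R-iCRE mice on a BL6 background that were injected with tamoxifen every day once tumours could be felt, which activates the recombinase and deletes the floxed Nrp2 gene in cells that use the Csf1r promoter. The control group came from the same strain, with the same floxed allele and the same Cre, and the labels name no tamoxifen for it, so that the drug and the deletion cannot be told apart. Tumours of both groups were taken at 15 days, and RNA of 3 animals was pooled into 1 library per group. With no second library in either group, the differences below have no replicate check and no p-values. Since the RNA comes from a mixed sort, fewer cells of a type and less RNA per cell cannot be told apart.

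The knockout library held 68554172 counted reads and the control library 64153676. Nrp2 was at 15.2 CPM (reads per 1000000 reads of the library, after TMM scaling of library sizes) in the knockout library and at 147.5 CPM in the control library, 9.71-fold lower. Intervals are 95% exact Clopper-Pearson intervals of a ratio, computed on reads divided by 24 in the knockout library and by 47 in the control library. These are the median reads of genes seen in that library alone, taken as the reads that 1 captured molecule gave. They cover counting error only, and not differences between animals. All 10 myeloid identity genes had over 1000 reads, among them Itgam, which encodes CD11b, and 0 of them were 2-fold apart. Their intervals all excluded 1, with 5 above it and 5 below. The ratios ran from 1.37-fold lower for Adgre1 to 1.68-fold higher for Cd68, and Itgam was 1.43-fold higher. Marker lists of other cell types and of the cell cycle had lower sums in the knockout library, except for adipocyte genes, given with Slc36a2, and neutrophil genes. Of 10 neutrophil genes 6 were higher and 4 lower, with a median log2 ratio of 0.60 over the 9 with at least 1000 reads. Lcn2 was 9.43-fold higher, Ltf 3.16-fold higher and Mmp9 3.05-fold lower. Ngp had 1033 reads in the knockout library and 2 in the control library. Summed levels were 69 and 206 CPM in the knockout and control libraries for 11 T cell genes, 21.4 and 201 CPM for 7 B cell genes, 141 and 423 CPM for 8 dendritic cell genes, 1446 and 1407 CPM for 10 neutrophil genes, 204 and 356 CPM for 8 fibroblast genes, 129 and 194 CPM for 7 epithelial tumour cell genes, 34.1 and 95.6 CPM for 7 endothelial genes, and 338 and 470 CPM for 15 cell cycle genes. The part of these cells in the values below was not tested.

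Of the 150 members, 13 were at least 2-fold higher in the knockout library, or 8.67%, against 4.5% of the 9054 genes of the table with at least 1000 reads. At least 2-fold lower were 2 members, or 1.33%, against 4.02% of those genes. In both directions together this made 15 members, or 10%, close to the 8.52% of the wider set. The median log2 ratio of the members, 0.06, was near that of the wider set, 0.04. Without regard to size, the ratio was above 1 for 88 members (58.7%, against 53.3% of the wider set) and below 1 for 62 (41.3%, against 46.7%). Of the members that were 2-fold apart, 5 of the 13 higher and both of the 2 lower had under 500 reads in their lower library. Among the 141 members with at least 500 reads in each library, 8 were higher by 2-fold or more and 0 lower by as much. The shares of all genes under this stricter filter were not computed, so these counts cannot be set against the wider set. At a smaller limit of 1.5-fold, 31 members were higher (20.7%, against 14.6% of the wider set) and 13 lower (8.67%, against 11.3%). The interval lay wholly above 1 for 32 members (18.7% in the wider set) and wholly below 1 for 17 (15.2% in the wider set).

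**Figure D1:**
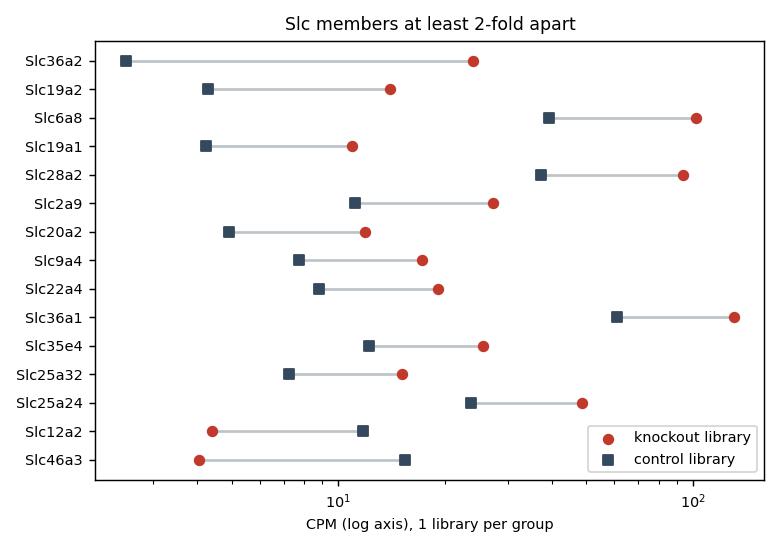
Level of the members that were at least 2-fold apart, as CPM on a log axis, with a red circle for the knockout library and a dark square for the control library (1 library per group, no error bars). In 13 genes the circle lies right of the square, with the widest gap for Slc36a2 at 23.9 CPM in knockout and 2.51 CPM in control, and in Slc12a2 and Slc46a3 it lies left of it.

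The promoter windows of 4 of these genes are printed to show the DNA around the starts of genes with ratios in either direction. They are RefSeq windows of 300 bases on GRCm38.p6, from 250 before to 50 after a gene's start, read 5′ to 3′ on the gene's own strand. Capitals mark CACGTG, the palindromic E-box that basic helix-loop-helix factors such as TFEB and MYC can bind.
Slc36a1, chr11:55204090-55204389, plus strand: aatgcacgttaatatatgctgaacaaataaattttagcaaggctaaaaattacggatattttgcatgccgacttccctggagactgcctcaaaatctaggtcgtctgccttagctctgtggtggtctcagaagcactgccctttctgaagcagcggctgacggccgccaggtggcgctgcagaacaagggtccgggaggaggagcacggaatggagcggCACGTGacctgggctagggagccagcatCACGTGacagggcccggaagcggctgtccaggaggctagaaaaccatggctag
Slc22a4, chr11:54028055-54028354, minus strand: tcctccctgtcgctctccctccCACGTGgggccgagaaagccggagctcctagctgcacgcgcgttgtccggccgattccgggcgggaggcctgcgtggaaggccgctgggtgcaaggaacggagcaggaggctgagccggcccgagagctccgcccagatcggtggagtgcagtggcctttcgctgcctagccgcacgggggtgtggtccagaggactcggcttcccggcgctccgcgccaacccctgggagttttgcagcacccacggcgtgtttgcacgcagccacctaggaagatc
Slc28a2, chr2:122426185-122426484, plus strand: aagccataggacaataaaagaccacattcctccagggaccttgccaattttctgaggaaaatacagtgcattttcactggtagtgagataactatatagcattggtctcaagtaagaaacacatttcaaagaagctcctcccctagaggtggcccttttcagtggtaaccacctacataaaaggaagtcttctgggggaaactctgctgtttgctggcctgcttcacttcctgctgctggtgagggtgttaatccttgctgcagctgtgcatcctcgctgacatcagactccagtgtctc
Slc46a3, chr5:147894766-147895065, minus strand: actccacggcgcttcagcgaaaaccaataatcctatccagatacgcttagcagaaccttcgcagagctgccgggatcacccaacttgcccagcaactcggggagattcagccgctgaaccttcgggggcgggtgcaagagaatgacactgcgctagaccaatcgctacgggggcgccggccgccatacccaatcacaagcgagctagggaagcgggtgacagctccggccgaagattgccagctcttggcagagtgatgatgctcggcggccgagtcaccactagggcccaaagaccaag
The Slc36a1 window holds a pair of such E-boxes, which start at positions 220 and 248 of the window, and the Slc22a4 window holds 1, at position 23. The Slc28a2 and Slc46a3 windows hold none. Windows were found for 114 of the 150 members, and 24 of these (21.1%) held CACGTG, against 12.8% of 7226 genes with at least 1000 reads and 8.09% of all 27025 genes with a window. Among the members at least 2-fold higher, 8 had a window, and Slc36a1 and Slc22a4 were the ones with the motif. The amino acid response element TGATGCAAT and the glucocorticoid response element, AGAACA and TGTTCT with 3 bases between them, were searched on both strands too and matched in 0 of the 114 members with a window, against 0.222% and 0.0111% of all windows. Of the motifs searched, none overlapped another in these windows.

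Amino acid and peptide transporters held the largest ratio of the members. The group has 23 members, of which 3 were higher in the knockout library by 2-fold or more and 0 lower by as much, with a median log2 ratio of 0.06 that turned sign under scaling by total counts. For this class and those that follow, the share of all genes with at least 1000 reads was 4.5% higher and 4.02% lower by 2-fold or more. The Slc36 family of amino acid transporters was higher in all 3 of its members. Slc36a2, which carries glycine, alanine and proline and is also known as a surface protein of brown fat cells, (ENSMUSG00000020264, GRCm38 chromosome 11, 55158470 to 55185077, minus strand) had 1601 reads in the knockout library and 165 in the control library, or 23.9 CPM in knockout and 2.51 CPM in control. It was 9.48-fold higher, with an interval of 3.13 to 31.7 that is wide because the control value stands on few molecules. Adipocyte marker genes were higher in the same library, 7 of 8, with summed levels of 115 CPM in the knockout library and 13.5 CPM in the control library. Adipoq, Plin1 and Retn were at 0 in the control library and Lep was at 0 in both, and the part of fat cells in the Slc36a2 value was not tested.

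Slc36a1, which exports amino acids from the lysosome and lies 19273 bases from Slc36a2 on chromosome 11, was read far more deeply. This gene (55204350 to 55236330, plus strand) was at 130 CPM in the knockout library and 61.1 CPM in the control library, 2.14-fold higher (1.69 to 2.75). Slc36a4, on chromosome 9, was at 106 and 54.3 CPM in the knockout and control libraries, 1.96-fold higher (1.51 to 2.54). The fourth gene of the family, Slc36a3, had 25 reads in the knockout library and 0 in the control library, both under the floor of 3 molecules (72 reads in knockout and 141 in control), and is no member.

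Slc6a8, the creatine transporter, was at 102 CPM in the knockout library and 39.2 CPM in the control library, 2.6-fold higher (1.94 to 3.53). Slc6a6, its relative that takes up taurine, was at 498 and 315 CPM in the knockout and control libraries, 1.58-fold higher (1.42 to 1.77). Carriers of neutral amino acids with the same direction were Slc43a2, which lets large neutral amino acids pass by diffusion, and Slc38a2, a sodium-coupled transporter of small neutral ones. Slc43a2 was 1.69-fold higher (1.47 to 1.95) and Slc38a2 1.68-fold higher (1.42 to 1.99). Other glutamine carriers of the plasma membrane were level: Slc1a5 was at 52 and 51.9 CPM in the knockout and control libraries, and Slc38a1, which lies 44479 bases from Slc38a2, at 62.6 CPM in knockout and 61.2 CPM in control. The intervals of their ratios were 0.745 to 1.34 and 0.782 to 1.33.

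Slc3a2 encodes the heavy chain CD98hc, which pairs with the light chains of the Slc7 family. It was at 445 CPM in the knockout library and 426 CPM in the control library, a ratio of 1.04 (0.944 to 1.15) whose direction turned under other scalings. Its light chains lay on both sides of 1. Slc7a7, which exports basic amino acids, was at 51 CPM in the knockout library and 74.2 CPM in the control library, 1.46-fold lower (1.13 to 1.9). Slc7a5, the LAT1 chain for large neutral amino acids, was at 27.9 and 18.7 CPM in the knockout and control libraries, 1.49-fold higher with an interval that includes 1 (0.952 to 2.44). Slc7a8, the LAT2 chain, was the most read of them at 138 CPM in knockout and 157 CPM in control, with a ratio of 0.883 (0.745 to 1.05).

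Carriers of the lysosome went both ways. Slc15a3, which takes peptides and histidine out of endosomes and lysosomes, had the most reads of all amino acid and peptide transporters. It was at 393 CPM in the knockout library and 491 CPM in the control library, 1.25-fold lower (1.13 to 1.37), and 28.1% of its exon bases overlap Tmem132a on the other strand, a gene with 208 reads in knockout and 689 in control. Its relative Slc15a4 had a ratio of 0.947 (0.697 to 1.28). Slc38a9, which senses and exports lysosomal amino acids, was at 32.6 CPM in knockout and 44.4 CPM in control (ratio 0.733, 0.526 to 1.03), and Slc38a7, which exports lysosomal glutamine, was at 47.3 CPM in knockout and 38 CPM in control (ratio 1.24, 0.9 to 1.75).

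**Figure D2:**
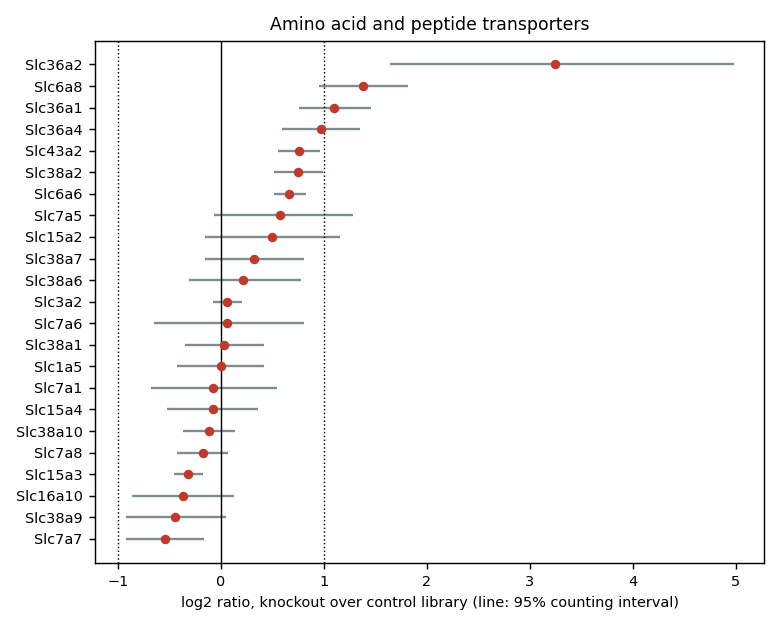
Log2 ratio of the knockout over the control library for the 23 amino acid and peptide transporters (points), with the 95% counting interval (lines) and dotted lines at 2-fold. Slc36a2, Slc6a8 and Slc36a1 lie past the upper dotted line, and Slc7a7 and Slc15a3 are the genes whose interval lies below 0.

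Among sugar and polyol transporters, 1 of 10 members was higher by 2-fold or more and 0 lower by as much (median log2 ratio 0.03, of either sign depending on the scaling). Slc2a9, a facilitated transporter that carries urate, was at 27.4 CPM in the knockout library and 11.2 CPM in the control library, 2.45-fold higher (1.37 to 4.37). Slc2a8 and Slc2a6, which sit on internal membranes, were 1.68-fold (1.01 to 3.1) and 1.42-fold (1.03 to 1.99) higher. Slc2a3, the high-affinity glucose transporter GLUT3 of the plasma membrane, was level at 55.5 and 56 CPM in the knockout and control libraries (interval of the ratio 0.753 to 1.32). Slc37a2, a sugar phosphate transporter of macrophage endoplasmic reticulum and the most read of the group, was at 114 CPM in knockout and 116 CPM in control. Slc45a4 was at 56.8 CPM in knockout and 48.3 CPM in control, and Slc37a4, which carries glucose 6-phosphate into the endoplasmic reticulum, was at the low end with a ratio of 0.853 (0.546 to 1.32).

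Transporters of lactate and related acids had 3 members with a ratio above 1 and 2 below, and the intervals that excluded 1 were those of the 2 lower ones. Slc16a3, the lactate exporter MCT4, was at 194 CPM in the knockout library and 289 CPM in the control library, 1.49-fold lower (1.31 to 1.7). Slc16a7, the high-affinity pyruvate and lactate transporter MCT2, was at 14.7 CPM in knockout and 25.8 CPM in control, 1.75-fold lower (1.09 to 2.81). Slc16a1, or MCT1, was at 30.8 CPM in knockout and 24.6 CPM in control, and the interval of its ratio, 0.842 to 1.94, includes 1. Slc16a6, a ketone body transporter, was at 86.5 CPM in knockout and 82.9 CPM in control. Of its exon bases 21.5% overlap Amz2 on the other strand. Slc13a3, which takes up dicarboxylates, was at 31.9 CPM in knockout and 30.6 CPM in control, a ratio of 1.04 that turned under other scalings as that of Slc16a6 did. Of the 5 members of the class 0 were 2-fold apart.

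Transporters of inorganic ions held 19 members, 2 of them higher by 2-fold or more and 1 lower by as much (median log2 ratio 0.07). Both phosphate importers of the Slc20 family were higher. Slc20a1, or PiT-1, was at 185 CPM in the knockout library and 116 CPM in the control library, 1.6-fold higher (1.34 to 1.93). Slc20a2, or PiT-2, was read much less, at 11.9 CPM in knockout and 4.9 CPM in control, and was 2.43-fold higher (1.03 to 6.32). Sodium-proton exchangers split by member. Slc9a4 was at 17.2 CPM in the knockout library and 7.75 CPM in the control library, 2.22-fold higher (1.12 to 4.66). Slc9a9, an exchanger of endosomes and the most read of the family, was at 56.2 CPM in knockout and 97.4 CPM in control, 1.73-fold lower (1.37 to 2.19). Slc12a2, the sodium-potassium-chloride importer NKCC1, was at 4.4 CPM in the knockout library and 11.7 CPM in the control library, 2.66-fold lower (1.18 to 6.17). The potassium-chloride exporters Slc12a4 and Slc12a7 were level, with ratios of 0.912 and 1.0. Slc4a8, a bicarbonate transporter, was 1.65-fold lower, with an interval that reaches 0.998.

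Metal ion transporters were the class with the lowest median log2 ratio, -0.19 (from -0.26 to -0.18 under the 4 scalings). A scaling shifts the ratios of all genes alike, here by -0.067 to 0.014 on the log2 scale. It could therefore not turn the sign of a median of this size. Of 21 members, 14 had a ratio below 1, where 46.7% of all genes with at least 1000 reads did, and 0 were 2-fold apart in either direction. Zinc importers of the Slc39 family, which bring zinc into the cytosol, were below 1 for 8 of 10 members. Zinc exporters of the Slc30 family, which take it out of the cytosol, were below 1 for 5 of 6. Single differences were small: of the 16 zinc transporters, Slc39a10 and Slc39a1 were the ones whose interval excluded 1. Slc39a10 was at 19.05 CPM in the knockout library and 34.1 CPM in the control library, 1.79-fold lower (1.2 to 2.73). Slc39a1, the most read zinc transporter, was at 128 CPM in knockout and 153 CPM in control, 1.2-fold lower (1.01 to 1.42). Slc39a4, close to the limit on reads, was at 6.45 CPM in knockout and 9.57 CPM in control (ratio 0.674, 0.321 to 1.54).

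Slc31a2, an internal relative of the copper importer, had the highest ratio of the class. It was at 121 CPM in the knockout library and 61.2 CPM in the control library, 1.98-fold higher (1.55 to 2.52), just under the 2-fold limit. The importer itself, Slc31a1 or CTR1, lies 62316 bases away on chromosome 4. It was at 158 and 140 CPM in the knockout and control libraries, with a ratio of 1.13 (0.952 to 1.34).

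**Figure D3:**
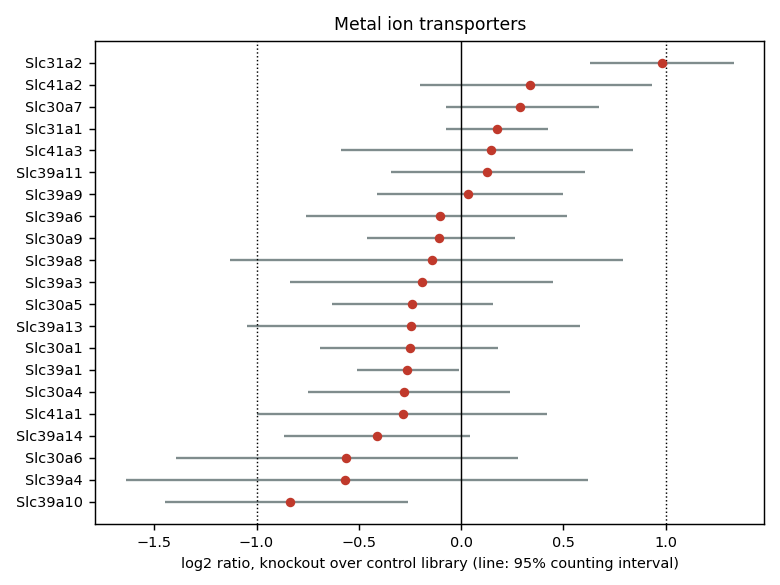
Log2 ratio of the knockout over the control library for the 21 metal ion transporters (points), with the 95% counting interval (lines) and dotted lines at 2-fold. Most points lie left of 0, by small amounts, and Slc31a2 at 0.98 is alone on the right with an interval that excludes 0.

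Mitochondrial carriers formed the largest class, with 29 members. Higher by 2-fold or more were 2 of them and lower by as much 0, while 7 were 1.5-fold or more higher and 4 lower by as much (median log2 ratio 0.10). Of all genes with at least 1000 reads, 4.5% were higher and 4.02% lower by 2-fold or more. By 1.5-fold or more, 14.6% of those genes were higher and 11.3% lower. The most read carriers were level. Slc25a5, the adenine nucleotide translocase ANT2 and the most read member of all, was at 551 CPM in the knockout library and 543 CPM in the control library (ratio 1.01, 0.929 to 1.11). Slc25a3, the phosphate carrier, was at 519 CPM in knockout and 510 CPM in control (ratio 1.02, 0.929 to 1.11), and Slc25a4, or ANT1, at 122 CPM in knockout and 110 CPM in control (ratio 1.1, 0.908 to 1.34). The reads of the closely similar Slc25a4 and Slc25a5 may be split between them by the counting.

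Carriers on the higher side included some of nucleotides, cofactors, metal ions and amino acids. Other carriers of amino acids were not higher: Slc25a13 had a ratio of 1.0 (0.58 to 1.88) and Slc25a22 of 0.86 (0.543 to 1.35). Slc25a24, which exchanges ATP-magnesium for phosphate, was at 48.7 CPM in the knockout library and 23.6 CPM in the control library, 2.06-fold higher (1.4 to 3.12). Slc25a32, which takes folate and flavin into mitochondria, was at 15.1 CPM in knockout and 7.27 CPM in control, 2.07-fold higher (1.04 to 4.7). Slc8b1, the sodium-calcium exchanger of the inner membrane, was 1.68-fold higher (1.34 to 2.12). Slc25a37, the iron importer mitoferrin 1, was at 94.8 and 58.5 CPM in the knockout and control libraries, 1.62-fold higher (1.26 to 2.1). It is known from red cell precursors, whose 7 markers summed to 2.73 CPM in the knockout library and 9.09 CPM in the control library. Of these markers 2 were higher and 4 lower, Alas2 was at 0 in both libraries, and 0 had 1000 reads. The part of red cell precursors in the Slc25a37 value was not tested. Slc25a15, the ornithine carrier, and Slc25a12, an aspartate-glutamate carrier, were 1.8-fold (1.02 to 3.5) and 1.43-fold (1.01 to 1.99) higher.

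The lower side held some carriers of acids of the citric acid cycle, and other carriers too. Slc25a45 had a ratio of 0.705 (0.528 to 0.964) and Slc25a38 of 0.635 (0.405 to 1.02). Slc25a11, which exchanges 2-oxoglutarate for malate, was at 75.5 CPM in the knockout library and 123 CPM in the control library, 1.63-fold lower (1.32 to 2.0). Slc25a1, which exports citrate, was at 39.2 CPM in knockout and 63 CPM in control, 1.61-fold lower (1.2 to 2.16). Slc25a10, the dicarboxylate carrier, and Slc25a20, the carnitine-acylcarnitine carrier of fatty acid oxidation, had ratios of 0.733 (0.514 to 1.04) and 0.723 (0.499 to 1.04), with intervals that include 1.

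**Figure D4:**
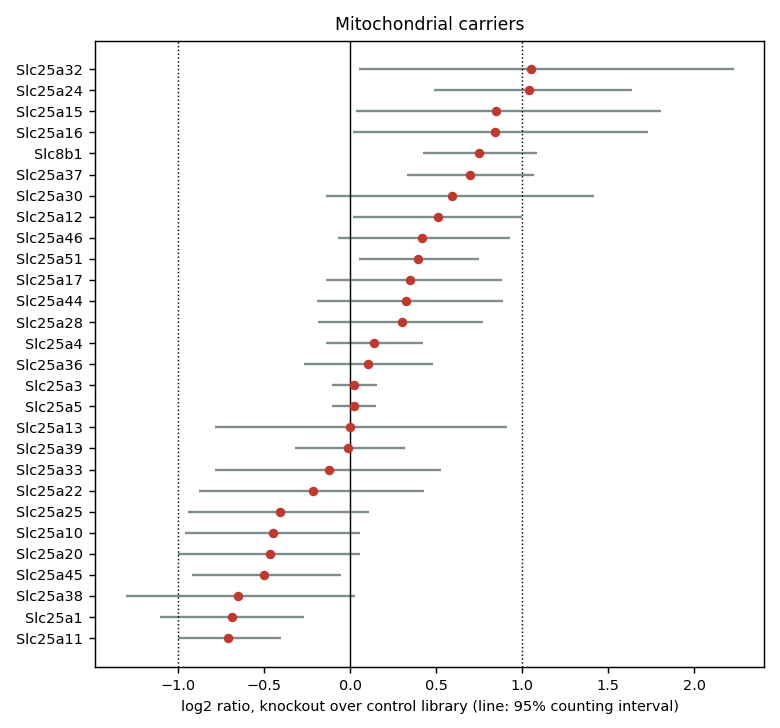
Log2 ratio of the knockout over the control library for 28 of the 29 mitochondrial carriers (points), with the 95% counting interval (lines) and dotted lines at 2-fold. The narrow intervals of Slc25a5 and Slc25a3 straddle 0, and Slc25a24 and Slc25a32 lie just past the upper dotted line. The intervals of Slc25a11, Slc25a1 and Slc25a45 lie below 0.

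Vitamin and haem transporters had the highest median, 0.50, over only 6 members. The Slc19 family takes up B vitamins, and its pair of members was higher. Slc19a2, a thiamine transporter, was at 13.97 CPM in the knockout library and 4.28 CPM in the control library, 3.26-fold higher (1.37 to 9.4). Slc19a1, the reduced folate carrier, was at 10.9 CPM in knockout and 4.22 CPM in control, 2.59-fold higher (1.02 to 7.35), and stood closest to the limit on reads. Under 500 control reads stood behind both Slc19a1 (277 reads) and the mitochondrial folate carrier Slc25a32 (477 reads). The lower ends of their intervals, 1.02 and 1.04, were close to 1. A further gene of this class, Slc46a1, the proton-coupled folate transporter, was under the limit with 246 reads in the knockout library and 146 in the control library. The interval of its ratio was 0.43 to 9.43. Slc23a2, which takes up vitamin C, was at 132 and 83.7 CPM in the knockout and control libraries, 1.57-fold higher (1.28 to 1.96). Slc48a1, or HRG1, which moves haem from the lysosome of macrophages to the cytosol, was the most read of the class at 195 CPM in knockout and 153 CPM in control, 1.28-fold higher (1.09 to 1.5). Slc52a2, a riboflavin transporter, had a ratio of 0.769 (0.469 to 1.31). Slc46a3, a lysosomal relative of the proton-coupled folate transporter, had the lowest ratio of all 150 members. This gene (ENSMUSG00000029650, GRCm38 chromosome 5, 147878437 to 147894815, minus strand) had 271 reads in the knockout library and 1012 in the control library, or 4.05 CPM in knockout and 15.4 CPM in control, and was 3.8-fold lower (1.86 to 9.13).

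Of 18 transporters of nucleosides, nucleotides and nucleotide sugars, 1 was higher by 2-fold or more and 0 lower by as much (median log2 ratio 0.15). Slc28a2, the sodium-coupled importer of purine nucleosides CNT2, was at 93.8 CPM in the knockout library and 37.2 CPM in the control library, 2.52-fold higher (1.87 to 3.46). Slc29a1, which equilibrates nucleosides across the plasma membrane, was at 102 CPM in knockout and 89.2 CPM in control (ratio 1.15, 0.922 to 1.42). Slc29a3, which lets nucleosides out of the lysosome, was at 92.8 CPM in knockout and 119 CPM in control, 1.28-fold lower (1.05 to 1.56). Golgi and endoplasmic reticulum carriers of the Slc35 family lay on both sides. Slc35b2, which carries the sulphate donor PAPS into the Golgi, was at 45.6 CPM in the knockout library and 86.2 CPM in the control library, 1.89-fold lower (1.46 to 2.44). Slc35c2 was 1.52-fold lower (1.18 to 1.95). Slc35a3, which carries UDP-N-acetylglucosamine, was 1.49-fold higher (1.05 to 2.19). Slc35d1, at 12.5 and 6.46 CPM in the knockout and control libraries, was 1.93-fold higher with an interval that includes 1 (0.917 to 4.6).

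Lipid and choline transporters did not differ beyond counting error. All 5 intervals included 1, with ratios from 0.782 for Slc27a4, a fatty acid transporter, to 1.23 for Slc44a1, a choline transporter. The levels of Slc27a1 were 55.8 CPM in the knockout library and 50.1 CPM in the control library. Of 3 transporters of organic ions, the neighbours Slc22a4 and Slc22a5 on chromosome 11 lay on opposite sides. Slc22a4, the ergothioneine transporter, was at 19.1 CPM in the knockout library and 8.8 CPM in the control library, 2.17-fold higher (1.17 to 4.54). Slc22a5, the carnitine transporter, was at 8.39 CPM in knockout and 14.8 CPM in control, with a ratio of 0.567 whose interval includes 1 (0.29 to 1.04). Slc17a5, the lysosomal sialic acid exporter, had a ratio of 1.23 (0.85 to 1.82).

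Members without a settled substrate numbered 8, of which Slc35e4 was at least 2-fold higher, at 25.6 CPM in the knockout library and 12.2 CPM in the control library, or 2.1-fold (1.22 to 3.79). The most read of them, Slc35f6, was at 140 CPM in knockout and 121 CPM in control (ratio 1.16, 0.962 to 1.39), and Slc35e1 and Slc35f5 had ratios of 0.863 and 0.941 with intervals that include 1. Among the genes with an Slc symbol that encode no transporter, Slc9a3r1, the membrane scaffold protein NHERF1, was at 205 CPM in the knockout library and 120 CPM in the control library, 1.71-fold higher (1.44 to 2.05). Slc4a1ap and Slc7a6os had ratios of 1.11 and 0.801, with intervals that include 1.

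**Figure D5:**
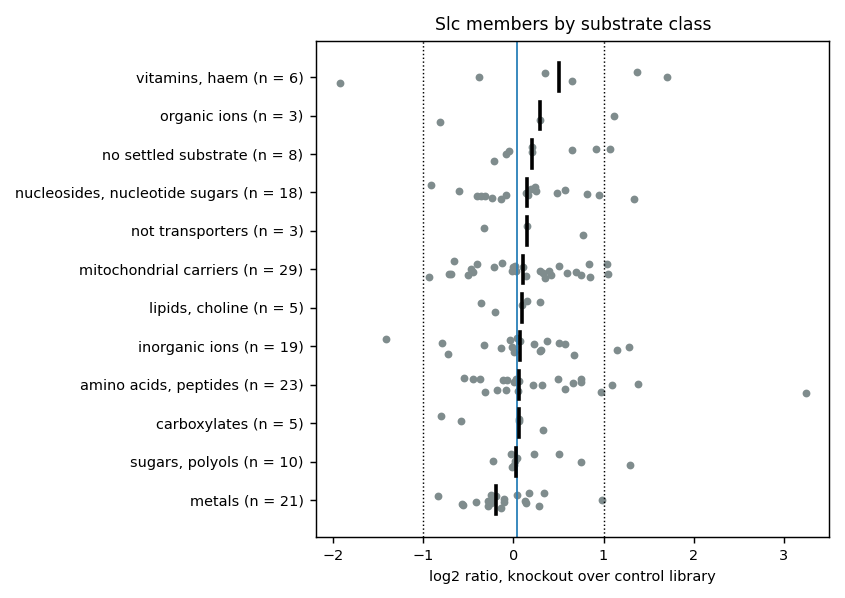
Log2 ratio of the knockout over the control library for the 150 members (grey points, 1 per gene) by substrate class, ordered by class median (black bars), with the median of all genes with at least 1000 reads (blue line, 0.04) and 2-fold (dotted lines). The medians run from -0.19 for metals to 0.50 for vitamins and haem, and the genes of 1 class lie on both sides of 0 in all 12 groups.

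Levels were compared between members per length, as reads per kilobase of annotated exon (CPM divided by exon length). On this scale Slc25a5 was the most expressed member at 334 in the knockout library and 330 in the control library, followed by Slc3a2 at 126 in knockout and 121 in control and Slc25a3 at 93.5 in knockout and 92 in control. Slc9a3r1 was at 107 in knockout and 62.3 in control, Slc15a3 at 71.7 in knockout and 89.5 in control, and Slc48a1 at 71 in knockout and 55.6 in control. Slc36a2, with the largest ratio, was far below these at 7.34 in knockout and 0.772 in control. Of the 102 members with at least 3000 summed reads, 4 were at least 2-fold higher and 0 lower. Of all genes under that minimum, 3.44% were higher and 2.34% lower by as much.

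Some transport proteins of the same superfamily carry other symbols. Of 75 such genes found in the table, 48 had at least 1000 reads, of which 4 were higher by 2-fold or more and 1 lower by as much (median log2 ratio 0.06). Of all genes with that many reads, 4.5% were higher and 4.02% lower by 2-fold or more. Tmem104, a relative of the amino acid transporters, was at 153 CPM in the knockout library and 50.6 CPM in the control library, 3.03-fold higher (2.34 to 3.93). Dirc2, a lysosomal membrane transporter, was at 116 CPM in knockout and 38.9 CPM in control, 2.97-fold higher (2.24 to 4.07). Mfsd7a was 2.89-fold higher (1.66 to 5.0) and Mfsd8, another lysosomal membrane protein, 2.28-fold (1.14 to 4.75). Spns3 had 89 reads in the knockout library and 1017 in the control library, or 1.33 CPM in knockout and 15.5 CPM in control. Of 10 measured partner subunits, among them Bsg, the chaperone of the lactate transporters, 0 were 2-fold apart.

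The p-values of the authors' deposited table rest on 1 library per group. They cannot measure differences between animals and are not used here. The fold changes of the authors' deposited table have the same sign as the ratios given here for 148 of the 150 members.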

How the data were processed

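Per the labels' protocols, a TruSeq stranded mRNA kit was used. Trimming, alignment and counting tools named in the submitters' processing notes are cutadapt, HISAT2 and featureCounts, with GRCm38 as build and no versions. The authors deposited raw read counts per Ensembl gene, of read 1 per the file headers, and a comparison table. Its normalised values are a signal (deposited counts divided by 1 constant per library), beside a log2 fold change and its error, a score, and p-values and adjusted p-values, as the authors deposited them. Neither the tool behind that table nor strand use in counting is given in the sources used here, so reads of overlapping genes are uncertain: exons of 15 members overlap those of another gene with over 100 reads.

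Symbols, positions and exon lengths came from GENCODE M21 (GRCm38). Ratios used TMM factors (edgeR 4.0.16, R 4.3.3; 0.977 for the knockout and 1.02 for the control library) and a prior of 0.5 counts. With 1 library per group edgeR's test has no residual degrees of freedom, so genes were called by size, at least 2-fold. Intervals came from scipy 1.17.1, on counts divided by the reads per molecule, and the script was checked on simulated data. PCR copies are counted as reads. The floor for a count of 0 is 3 molecules.

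Named are all members 2-fold apart, the 3 most read and the extreme ratios of each class, the genes nearest the limit, and further members chosen after their values were seen. Some genes that this rule covers are not reported here. The members, classes and lists were chosen with earlier results of these data known. Alternatives were DESeq2 1.42.0 size factors, upper-quartile factors, total counts, a prior of 5, and read minimums of 500 and 3000 or none.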

Additional observations from a re-analysis of the deposited data

How the results depend on the processing

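The counts of members 2-fold apart, 13 higher and 2 lower, depended on the read minimum. With a minimum of 500 reads, 15 were higher and 4 lower (of 166 genes), with 3000 reads 4 higher and 0 lower (of 102), and with no minimum beyond 1 read in each library 23 higher and 16 lower (of 205). Beside these, 5.42%, 3.44% and 10.2% of all genes under the same minimum were higher and 5.69%, 2.34% and 13.2% lower. A limit of 1.5-fold, chosen after the data were seen, gave 31 higher and 13 lower. The median of the organic ion class, 0.30 over 3 genes, was -0.26 at 500 reads and -1.06 with no minimum, since these add genes. Upper-quartile and total scaling gave 11 higher and 2 lower, and DESeq2 size factors and a prior of 5 gave 13 and 2. The direction of 17 members, all within 0.062 of 0 on the log2 scale, turned under a scaling, and so did the medians of the amino acid, sugar and carboxylate classes. Requiring an interval on 1 side of 1 left the counts at 13 and 2. No paired analysis was possible because each group has 1 library, and no replicate could be left out. The depth limits members with few reads: Slc36a2 stands on 165 control reads.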

Other observations

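Of 12 P-type ATPases with at least 1000 reads, 10 had a ratio above 1, where 53.3% of all genes with that many reads did, and 2 below (median log2 ratio 0.26, against 0.04 for all genes with that many reads). Atp13a2, a lysosomal polyamine exporter, was at 526 CPM in the knockout library and 283 CPM in the control library, 1.86-fold higher (95% counting interval 1.66 to 2.09), and Atp2a2, the calcium pump of the endoplasmic reticulum, was 1.55-fold higher (1.35 to 1.8).

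Of 21 ABC transporters with at least 1000 reads, 16 had a ratio above 1, beside the same 53.3% of all genes (median 0.26). Higher by 2-fold or more were 2 of them, and 1 was lower by as much. Of all genes with that many reads, 4.5% were higher and 4.02% lower by 2-fold or more. Abcc5 was at 102 CPM in the knockout library and 49.9 CPM in the control library, 2.04-fold higher (1.56 to 2.68), and the peroxisomal fatty acid transporter Abcd2 was 2.4-fold higher (1.41 to 4.48). Abcg3 was at 20.8 CPM in knockout and 48.6 CPM in control, 2.34-fold lower. The cholesterol exporter genes Abca1 and Abcg1 were 1.62-fold (1.46 to 1.79) and 1.6-fold (1.29 to 1.97) higher.

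Of the 86 Slc genes with reads but under the limit, 25 (29.1%) had reads in the knockout library only and 6 (6.98%) in the control library only. Of all 9810 genes with reads but fewer than 1000, 26.6% had them in the knockout library only and 13.2% in the control library only.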
